A study of Mus musculus with 2 samples.

Results

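The 10 genes described here encode plasma proteins, apolipoproteins and a protein uptake receptor of the yolk sac and the liver. Members were all genes whose symbol was Afp, Alb, Ttr, Rbp4, Apoa1, Apoa4, Apob, Apom, Cubn or Amn, and all 10 were found among the 32285 genes of the count tables. Transcripts were counted as unique molecular identifiers (UMIs) in single cells of dissociated whole mouse embryos at E9.5, in 1 droplet library from wild-type (Usb1+/+) and 1 from Usb1-null (Usb1-/-) embryos. Usb1 codes for an exonuclease that shortens U6 small nuclear RNA at its 3′ end, and the study asked whether cell types of the embryo differ between the genotypes. The Usb1-null embryos carried a germline CRISPR deletion early in the gene and came from crosses of heterozygous mice, and no other allele or treatment is named. The strain, sex and number of embryos in each library, and whether the yolk sac was kept, were not found in the sources used here. Since each group was 1 library, no test was made and no difference has a replicate check. Every interval is a 95% interval of counting error only.

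The visceral endoderm of the yolk sac and the hepatic cells of the liver bud both secrete plasma proteins, and early in development the yolk sac does much of the later work of the liver. Alpha-fetoprotein (Afp) is the major plasma protein of embryonic endoderm and is shut off in the liver after birth, whereas albumin (Alb) dominates in the mature liver. Absorptive endoderm also takes up proteins from outside the cell through cubilin (Cubn), which is held in the membrane by amnionless (Amn).

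Several members are neighbours in the genome. On GRCm38, Alb (chromosome 5, 90460897 to 90476602, plus strand) and Afp (chromosome 5, 90490737 to 90508907, plus strand) lie 14134 bases apart with no annotated gene between them. Apoa1 (chromosome 9, 46228580 to 46230466, plus strand) and Apoa4 (chromosome 9, 46240696 to 46243459, plus strand) are separated by 10229 bases that hold Apoc3, another apolipoprotein gene. Apob lies on chromosome 12 from 7977648 to 8016835 and Amn on chromosome 12 from 111271095 to 111276426, both on the plus strand. Rbp4 lies on chromosome 19 from 38116629 to 38125281 (minus strand) and Apom on chromosome 17 from 35128997 to 35132050 (minus strand). Cubn is the longest member, with 215476 bases on chromosome 2 from 13276338 to 13491813 (minus strand). Afp, Apoa4 and Cubn each overlap an annotated gene on the other strand, and no source used here says whether reads were assigned by strand.

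The promoters of Afp and Alb are printed because these neighbours, both known targets of the endoderm factor HNF1, had different levels in the groups of cells described below. Each runs from 250 bases before to 50 bases after the start (RefSeq, GRCm38.p6, plus strand), at chr5:90490464-90490763 for Afp and chr5:90460620-90460919 for Alb. Capitals mark GTTAAT, a half-site of the HNF1 motif.
Afp: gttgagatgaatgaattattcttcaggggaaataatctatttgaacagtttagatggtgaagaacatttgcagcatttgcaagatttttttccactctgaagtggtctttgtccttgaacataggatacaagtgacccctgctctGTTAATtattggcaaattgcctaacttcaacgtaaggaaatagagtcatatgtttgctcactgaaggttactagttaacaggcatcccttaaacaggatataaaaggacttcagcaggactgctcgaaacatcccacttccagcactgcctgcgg
Alb: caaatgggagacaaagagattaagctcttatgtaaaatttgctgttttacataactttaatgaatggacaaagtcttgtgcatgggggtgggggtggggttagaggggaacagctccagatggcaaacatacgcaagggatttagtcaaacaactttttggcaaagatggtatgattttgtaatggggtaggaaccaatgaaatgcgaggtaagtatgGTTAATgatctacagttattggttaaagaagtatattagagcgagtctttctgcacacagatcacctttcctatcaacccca
The match began at position -105 in Afp and -32 in Alb, counted from the RefSeq start. Promoters of 9 members were searched on both strands, and 2 held these letters. GTTAAT occurred in 7.10% of 32851 promoters of this length, on either strand.

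Depth differed between the libraries. After filtering, 15161 wild-type cells held 21732106 UMIs and 13018 Usb1-null cells held 33383886 UMIs, with medians of 1243 and 2299.5 UMIs per cell. Levels are therefore given as CPM, the UMIs of a gene per 1000000 UMIs of all genes in the same cells, and shares of cells with a UMI also after thinning each cell to 500 UMIs. Xist had 53276 wild-type and 26 Usb1-null UMIs and the Y-linked gene Uty 3 and 11796, so that sex and genotype cannot be told apart. Usb1 itself had 68 and 47 UMIs, which does not check the labels, since transcripts are counted at the 3′ end. The libraries shared 61 barcodes, none of them in the secretory or mature liver-like groups described below.

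In the whole libraries each of the 10 members had a higher level in Usb1-null than in wild-type, although the log2 ratio of Afp turned to -0.31 when each cluster was given its wild-type share of the UMIs in both libraries, and that of Amn to -0.39 after thinning and -0.056 with those shares. Their summed level was 35.6 CPM (33.2 to 38.2, 774 UMIs) in wild-type against 114 CPM (110 to 117, 3796 UMIs) in Usb1-null, a ratio of 3.19 (2.95 to 3.45). With 1 CPM added to each level, 5 of the 9 members with at least 20 UMIs were at least 2-fold higher (Alb, Ttr, Apoa1, Apob and Cubn) and none was 2-fold lower, where 1.37% of the 18921 genes with at least 20 UMIs were 2-fold higher and 0.465% 2-fold lower. Apoa4, with 8 UMIs, was the only member under 20 UMIs. The median log2 ratio was 0.96 over the members and 0.01 over all these genes. In such sums a larger number of cells of a type and more RNA per cell cannot be told apart.

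Among the carriers, Alb had 21 UMIs (0.966 CPM, 0.598 to 1.48) in wild-type against 1349 UMIs (40.4 CPM, 38.3 to 42.6) in Usb1-null, a ratio of 41.8 (27.2 to 67.8). Its neighbour Afp had 248 UMIs (11.4 CPM, 10.0 to 12.9) and 427 UMIs (12.8 CPM, 11.6 to 14.1), a ratio of 1.12 (0.956 to 1.32). The libraries thus differed widely in Alb, while the interval of Afp contained 1. Transthyretin (Ttr; chromosome 18, 20665280 to 20674321, plus strand), which carries thyroid hormone, had 133 and 478 UMIs (6.12 and 14.3 CPM, a ratio of 2.34, 1.93 to 2.86). Rbp4, the retinol carrier that travels bound to transthyretin, had 168 and 480 UMIs (7.73 and 14.4 CPM, a ratio of 1.86, 1.56 to 2.23).

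Apolipoproteins and the uptake receptor were also higher in the Usb1-null library. Apob, the scaffold of exported lipid particles, had 41 and 249 UMIs (1.89 and 7.46 CPM, a ratio of 3.95, 2.83 to 5.64). Apoa1, the main protein of high density lipoprotein, had 51 and 236 UMIs (2.35 and 7.07 CPM, 3.01, 2.22 to 4.16). Apom, which binds sphingosine 1-phosphate, had 31 and 106 UMIs (1.43 and 3.18 CPM, 2.23, 1.48 to 3.44). Apoa4, an exchangeable apolipoprotein, had 0 and 8 UMIs, which makes it at least 1.74-fold higher in Usb1-null against a floor of 3 counts in the wild-type library. Cubn had 56 and 418 UMIs (2.58 and 12.5 CPM, 4.86, 3.67 to 6.54). Its anchor Amn had 25 and 45 UMIs (1.15 and 1.35 CPM, 1.17, 0.703 to 1.99), and Afp and Amn were the members with an interval that contained 1. Whether the length of Cubn adds to its count was not tested.

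To see which cells carried these UMIs, cells were clustered with the 10 members left out of the variable genes. Cluster 13 raised most markers of the yolk sac and hepatic endoderm list, 17 of 25, although its 10 leading genes (Nepn, Rfx6, Cubn, Adcy8, Afp and others) held none of them. It was mixed: when its cells were clustered again, 271 fell in a gut and pharyngeal endoderm-like sub-cluster, 224 in an unnamed one, 64 in a yolk sac and hepatic endoderm-like one and 1 in one led by mature liver genes. It is therefore called the endoderm cluster and not by the name of that list. Cells of this cluster numbered 235 in wild-type, or 1.55% (1.36 to 1.76), against 325 in Usb1-null, or 2.50% (2.24 to 2.78), and the ratio of these shares, which is that of the mixed cluster, was 1.61 (1.36 to 1.91). Cluster 18 was led by Alb, Apoa2 and Mup3 and raised 15 of 15 mature liver markers, but its content differed between the libraries. Its 33 wild-type cells held 135 Afp and 2 Alb UMIs, and 4 UMIs of a list of 30 mature liver genes without members. Its 53 Usb1-null droplets held 3 Afp and 886 Alb UMIs, and 995 UMIs of that list.

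Because of this mismatch, both clusters were also divided by 1 rule in both libraries, a choice made after their content was seen. Droplets with at least 3 UMIs of the mature liver list are called mature liver-like. Of the rest, cells in sub-clusters that raised most markers of the endoderm or the mature liver list are called secretory endoderm-like, and the remainder other endoderm. The secretory group had 48 wild-type cells (33 from cluster 18 and 15 from cluster 13) and 53 Usb1-null cells (6 from cluster 18 and 47 from cluster 13), a share ratio of 1.29 (0.854 to 1.94). This ratio was 0.979 without droplets holding a mature liver UMI and 3.65 with the cells of cluster 13 alone, so its direction is not settled. Of the 25 endoderm markers, 22 had a UMI in the wild-type and 24 in the Usb1-null secretory cells. The list stood at 5242 and 4520 CPM there, against 319 and 253 CPM in the cells outside both clusters. That list also served to pick these cells, so its raised level is not a check of what they are. Markers with at least 3 UMIs and 2-fold the level outside numbered 13 in wild-type and 22 in Usb1-null. Endothelial markers were at 102 and 92.3 CPM in the secretory cells against 644 and 597 CPM. Primitive erythroid markers were at 438 and 78.1 CPM against 911 and 233 CPM. Markers of gut and pharyngeal endoderm were raised too, at 1139 and 1086 CPM against 349 and 319 CPM. The 15 mature liver markers were at 58.4 and 114 CPM against 25.4 and 31.4 CPM, on 4 and 16 UMIs. Other endoderm had 220 and 274 cells, in a gut-like sub-cluster led by Hs3st3a1 and an unnamed one led by Kcnq3.

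**Figure D1:**
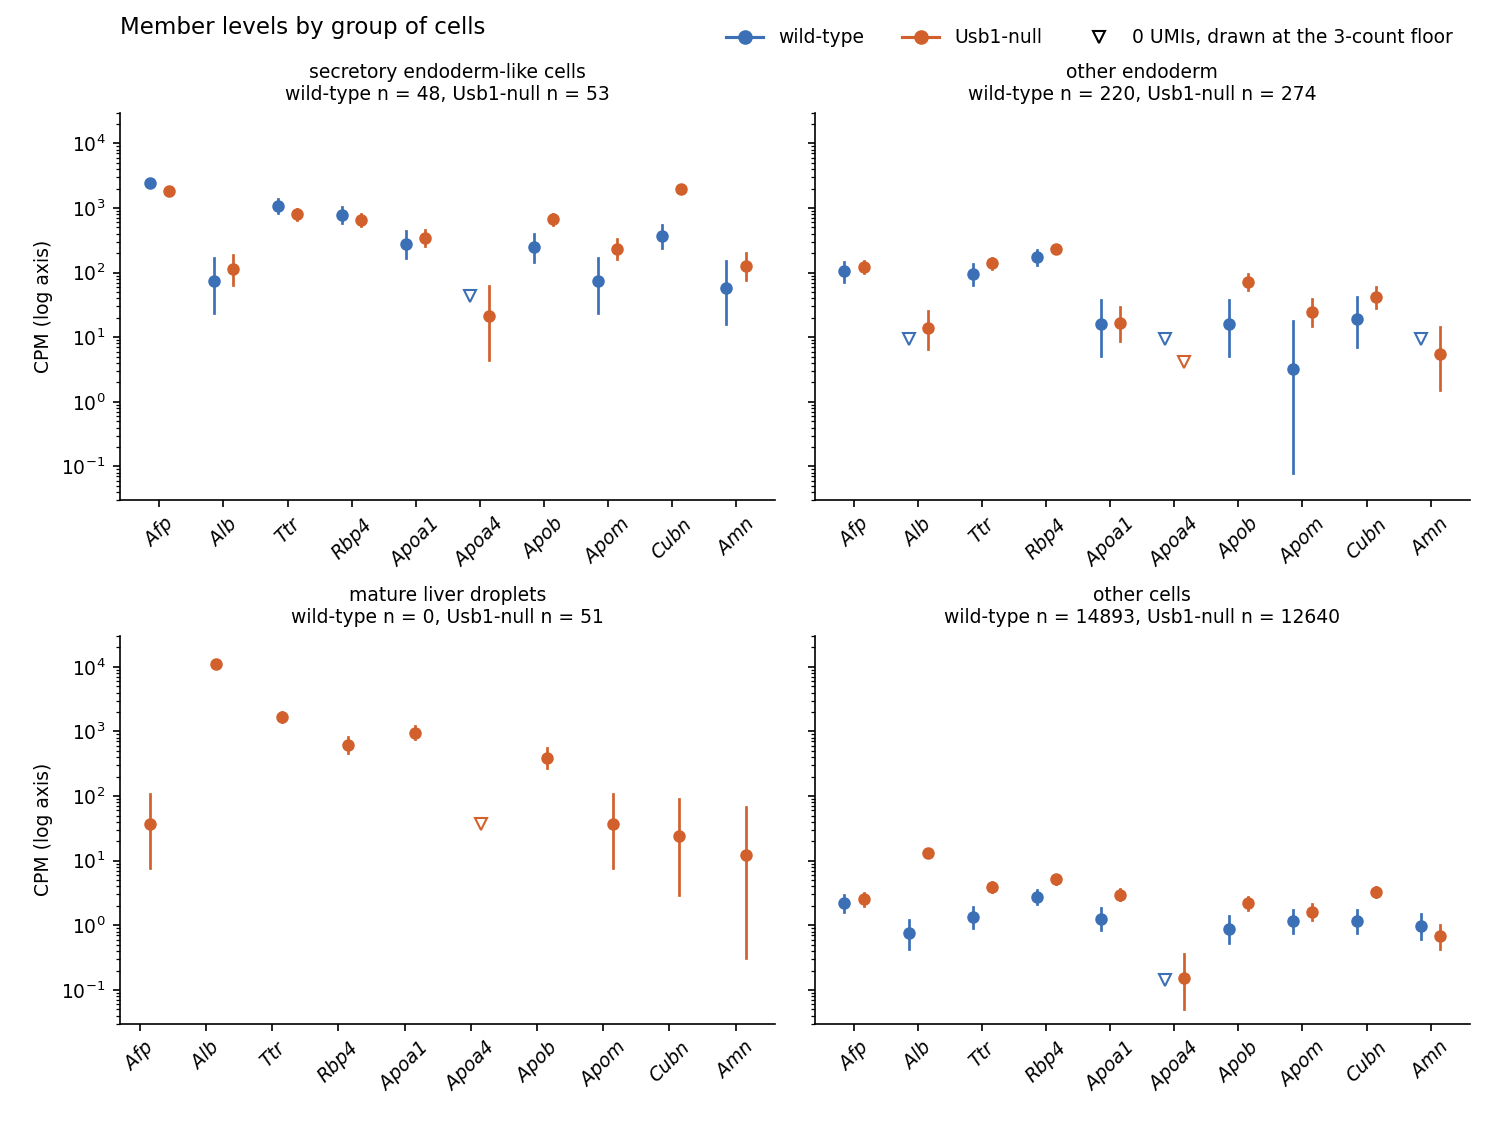
Levels of the 10 members in CPM (log axis) in 4 groups of cells, wild-type in blue and Usb1-null in orange. Points are sums over the cells of 1 library, bars are exact Poisson 95% intervals and open triangles mark 0 UMIs at the floor of 3 counts. Afp stood at 2453 and 1802 CPM in the secretory endoderm-like cells and at 36.8 CPM in the mature liver-like droplets, where Alb was at 10965 CPM.

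Within clusters 13 and 18, mature liver-like droplets were found in the Usb1-null library, with 51 of 13018 droplets (0.392%, 0.292 to 0.515), and not in wild-type, where 0 of 15161 allows a share of up to 0.0198% by the floor of 3 counts and 0.0243% by the exact interval. In cluster 18 of Usb1-null, 5 droplets held 1 and 1 held 2 UMIs of the list, just outside the limit, and 3 held 3 and 3 held 4, just inside. Among the cells of other clusters, 6 wild-type and 38 Usb1-null cells also reached 3 UMIs of the list; they held 0 and 91 Alb UMIs and were left in those clusters. The droplets had a median of 975 UMIs, below that of the library. Uty had 23 UMIs in them (282 CPM, against 353 CPM in the whole Usb1-null library), and Xist had 4 (49.1 CPM, against 0.779 CPM). Of the other Y-linked genes, Ddx3y was at 135 CPM against 91.8 CPM, Kdm5d at 98.1 against 73.4 CPM and Eif2s3y at 172 against 184 CPM. The Y-linked genes thus lay on both sides of their library levels, each on few UMIs in the droplets. Xist was above its library level in the Usb1-null secretory cells too (3 UMIs, 21.3 CPM), so this was not particular to the droplets.

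Alb was the leading member in these droplets, with 894 UMIs (10965 CPM, 10258 to 11708) and at least 1 UMI in each of the 51. Afp had 3 UMIs (36.8 CPM, 7.59 to 108), in 2 droplets. Ttr had 136 UMIs (1668 CPM), Apoa1 78 (957 CPM), Rbp4 51 (626 CPM) and Apob 32 (392 CPM). These carriers and apolipoproteins were thus present, whereas Apom had 3 UMIs, Cubn 2, Amn 1 and Apoa4 0. Of the droplets, 49 had Alb and no Afp, 2 had both and none had Afp alone. Secretory cells showed the opposite order, since 33 of 48 wild-type and 33 of 53 Usb1-null cells had Afp and no Alb, 3 and 3 had both, and 2 and 3 had Alb alone. In other endoderm, 22 of 220 wild-type and 45 of 274 Usb1-null cells had Afp alone, 0 and 5 had Alb alone and 0 and 5 had both. Of the 10 Usb1-null cells of other endoderm with Alb, 5 thus also had Afp. The mature liver-like droplets held 66.3% of the Alb UMIs and 0.703% of the Afp UMIs of the Usb1-null library.

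**Figure D2:**
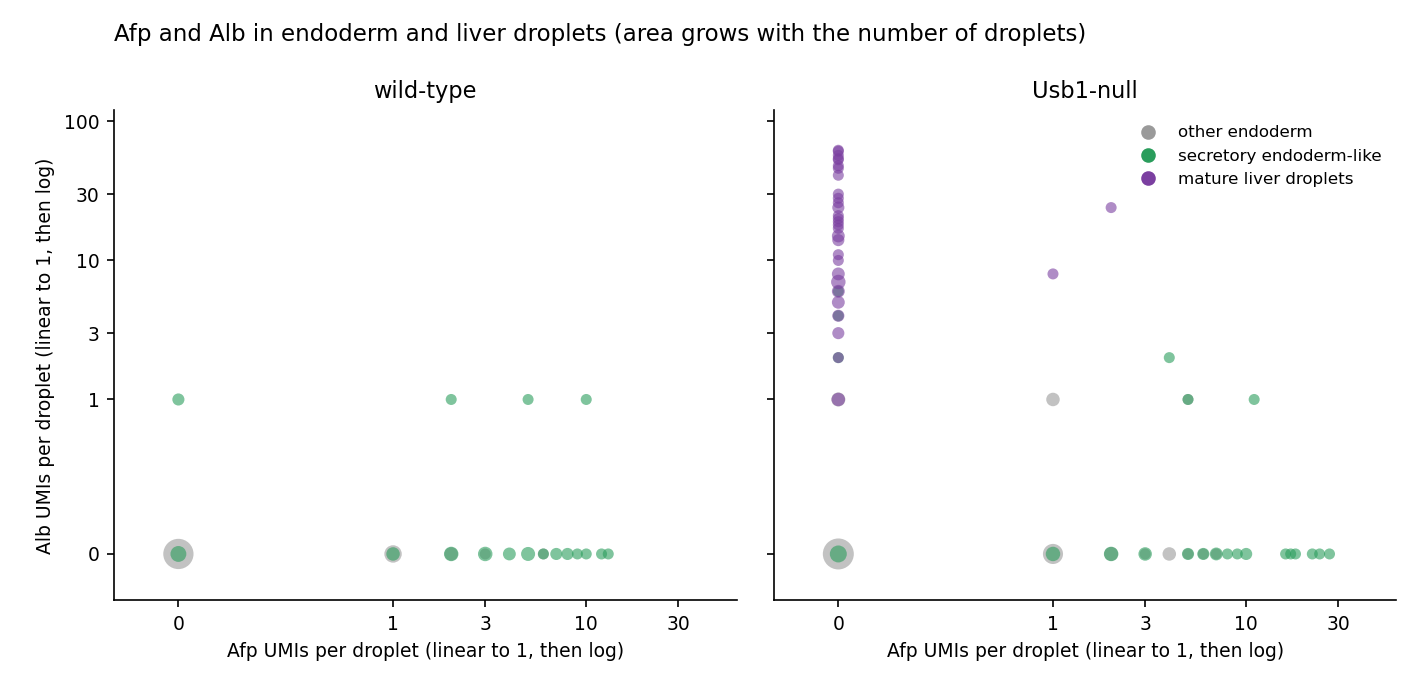
Afp UMIs (horizontal) against Alb UMIs (vertical) per droplet, both axes linear to 1 and then logarithmic, for wild-type and Usb1-null; colours mark the 3 groups of cells and the area of a point grows with the number of droplets at it. Secretory endoderm-like cells spread along the Afp axis in both libraries, to 13 UMIs in wild-type and 27 in Usb1-null, and the mature liver-like droplets spread along the Alb axis, to 62 UMIs.

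Within the secretory endoderm-like cells Afp was lower in Usb1-null, and the ratios of Ttr, Rbp4 and Alb had intervals that contained 1. Afp had 168 UMIs (2453 CPM, 2096 to 2854) in wild-type against 254 UMIs (1802 CPM, 1588 to 2038) in Usb1-null, a ratio of 0.735 (0.602 to 0.898). It was seen in 36 of 48 and 36 of 53 cells, and in 25 and 23 after thinning. This difference was larger than counting error. Ttr had 74 and 113 UMIs (1081 and 802 CPM), a ratio of 0.742 (0.549 to 1.01). Rbp4 had 54 and 93 UMIs (789 and 660 CPM), a ratio of 0.837 (0.592 to 1.19). Alb had 5 and 16 UMIs (73.0 and 114 CPM, a ratio of 1.56, 0.544 to 5.43), and 12 of the 16 lay in the 6 droplets from cluster 18. With the secretory cells of cluster 13 alone (15 wild-type and 47 Usb1-null), the log2 ratio of Afp was 0.30 in place of -0.44 and that of Alb -2.20 in place of 0.63.

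Apolipoproteins were unequal in the same cells. Apob had 17 UMIs (248 CPM, 145 to 397) in wild-type against 94 (667 CPM, 539 to 816) in Usb1-null, a ratio of 2.69 (1.59 to 4.81). It was seen in 4 of 48 and 21 of 53 cells, or 4 and 8 after thinning, and 14 of the 17 wild-type UMIs lay in 1 cell. Apob was thus spread over more Usb1-null cells, but its wild-type level rested mainly on a single cell. With the cell of most UMIs left out in each library, the log2 ratio was 3.67 in place of 1.42. Apom had 5 and 33 UMIs (73.0 and 234 CPM, a ratio of 3.21, 1.24 to 10.5), and its log2 ratio was 0.27 after thinning in place of 1.67. Apoa1 had 19 and 49 UMIs (277 and 348 CPM, a ratio of 1.25, 0.725 to 2.25), with an interval that contained 1. Apoa4 had 0 and 3 UMIs, which is within the floor of 3 counts, so no fold is given.

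Cubn had the largest ratio of the members with a UMI in both libraries. It had 25 UMIs (365 CPM, 236 to 539) in wild-type against 279 UMIs (1980 CPM, 1754 to 2226) in Usb1-null, a ratio of 5.42 (3.60 to 8.53). Cubn was seen in 7 of 48 and 18 of 53 cells, or 5 and 17 after thinning, with up to 9 UMIs in a wild-type and 54 in a Usb1-null cell. It was therefore found in more Usb1-null cells, with and without thinning. Afp and Cubn were seen together in 6 wild-type and 15 Usb1-null cells, Cubn without Afp in 1 and 3, and Afp without Cubn in 30 and 21. Amn had 4 and 18 UMIs (58.4 and 128 CPM, a ratio of 2.19, 0.720 to 8.88), so that its interval contained 1. Over the 9 alternatives run on this group, the log2 ratio of Cubn lay between 2.01 and 2.80.

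Across the secretory cells, 4 of the 9 members with at least 20 UMIs were at least 2-fold higher in Usb1-null (Apob, Apom, Cubn and Amn) and none 2-fold lower, where 9.11% of 2865 genes were 2-fold higher and 6.35% 2-fold lower. The summed level was 5418 CPM (4880 to 5998) in wild-type against 6756 CPM (6333 to 7199) in Usb1-null, a ratio of 1.25 (1.10 to 1.41). The make-up of the members' UMIs differed more than their sum. Afp made up 45.3% of them in wild-type (40.1 to 50.5) and 26.7% in Usb1-null (23.9 to 29.6). Cubn made up 6.74% (4.41 to 9.79) and 29.3% (26.4 to 32.3). Called doublets were 6 of the wild-type and 0 of the Usb1-null secretory cells, and the median depth was 1276 and 2529 UMIs. The part of depth and doublets in these differences was examined only by thinning and by removing the called doublets.

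**Figure D3:**
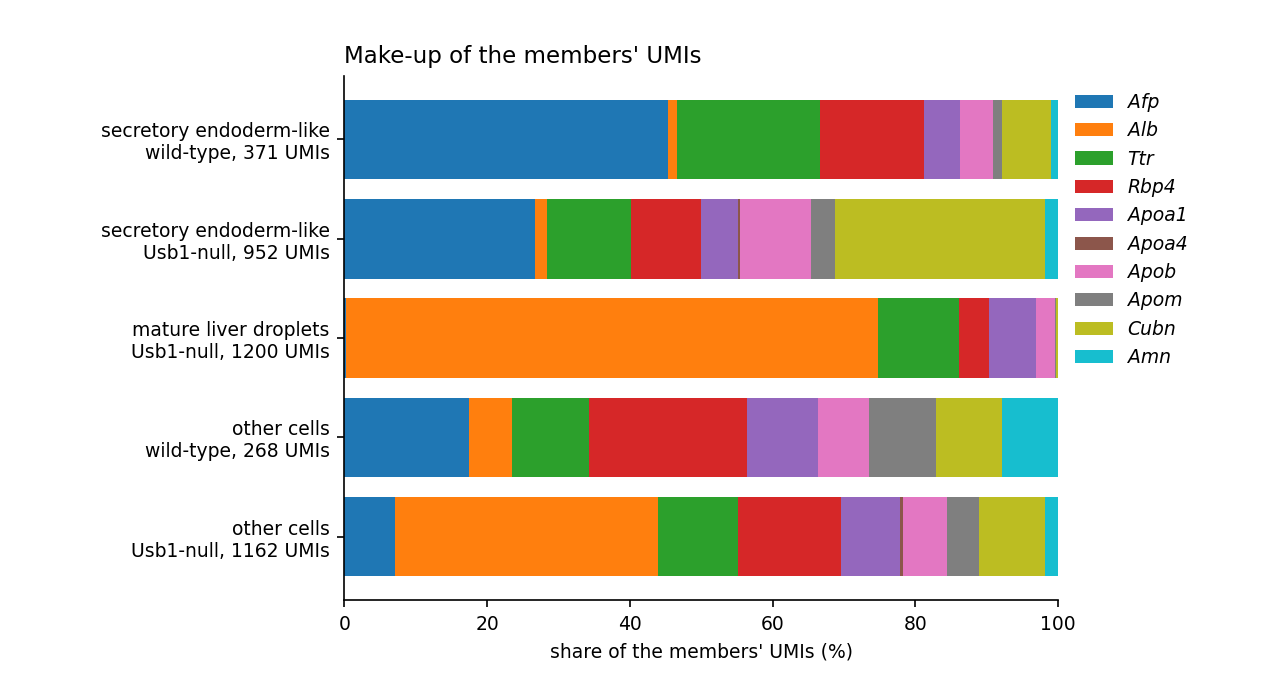
Share of the members' UMIs (%, horizontal) taken by each of the 10 members in 5 groups of cells, with the number of UMIs beside each bar. Afp and Cubn took 45.3% and 6.74% in wild-type secretory endoderm-like cells against 26.7% and 29.3% in Usb1-null, and Alb took 74.5% in the mature liver-like droplets and 36.9% in other Usb1-null cells. The secretory cells were a different mix, with 15 of 48 in wild-type and 47 of 53 in Usb1-null from the endoderm cluster.

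The ratios depended on how the endoderm was delimited. In cluster 13 as clustered, the summed level was 712 CPM in wild-type against 1684.5 CPM in Usb1-null, a ratio of 2.37 (2.06 to 2.73). This log2 ratio of 1.24 was not stable over clusterings, being 0.40 with another seed, 0.37 with more variable genes, 0.50 without the pathway lists and 0.32 without library correction or without called doublets. In the merged endoderm, clusters 13 and 18 without the mature liver-like droplets (268 and 327 cells), the sum was 1321 and 1665 CPM, a ratio of 1.26 (1.14 to 1.40). In cluster 13, 6 of the 9 members with at least 20 UMIs were at least 2-fold higher with 1 CPM added and none 2-fold lower, where 4.34% of 9016 genes were 2-fold higher and 3.09% 2-fold lower. Afp was at 197 and 399 CPM, a ratio of 2.03 (1.56 to 2.68), but most Afp UMIs of the wild-type endoderm lay outside this cluster, in cluster 18. In the merged endoderm Afp was at 525 and 397 CPM, a ratio of 0.757 (0.634 to 0.906). Cubn was higher in Usb1-null under each of the 3 groupings, with 50.6 and 360 CPM in cluster 13 (7.12, 4.37 to 12.4) and 80.9 and 359 CPM in the merged cells (4.43, 3.06 to 6.64). Apob had ratios of 11.5 (4.82 to 36.0) and 2.95 (1.88 to 4.86) in these groupings. Ttr went from 1.48 in cluster 13 to 0.911 in the merged cells and Rbp4 from 1.36 to 1.07.

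**Figure D4:**
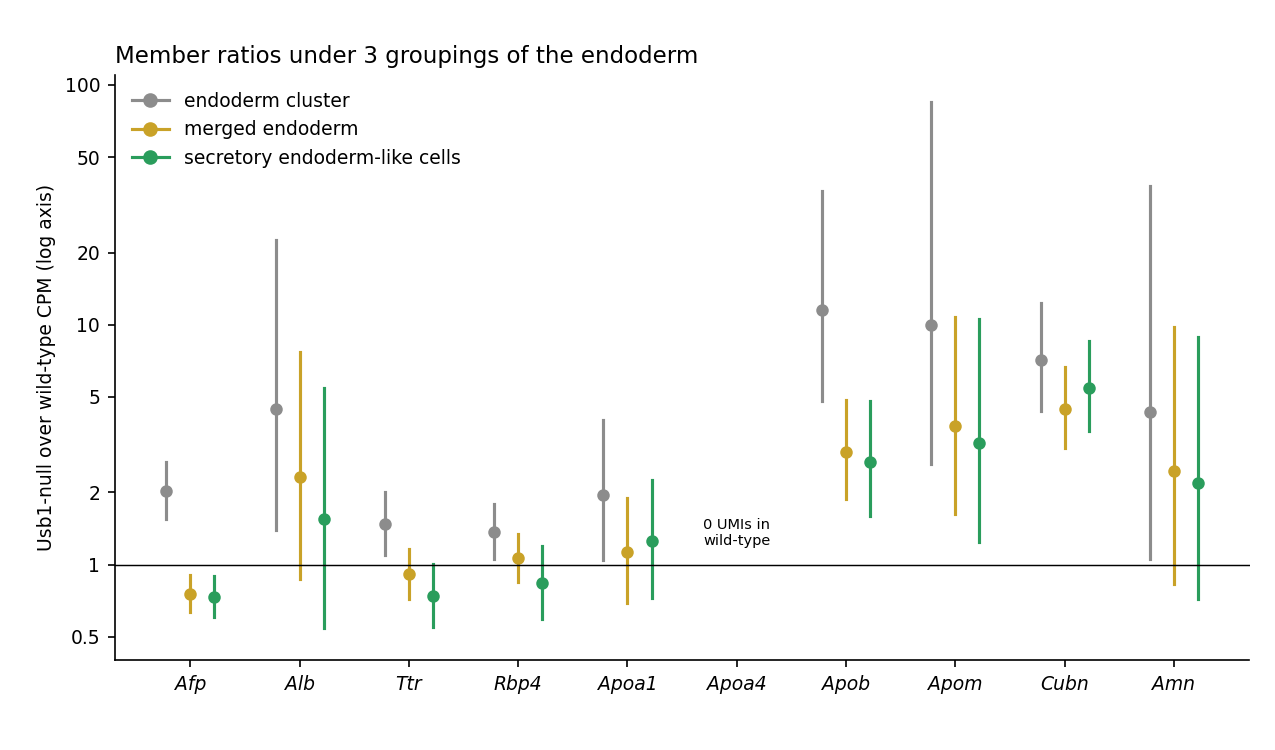
Ratio of Usb1-null over wild-type CPM (log axis) for each member in cluster 13, in the merged endoderm and in the secretory endoderm-like cells; bars are exact 95% intervals of counting error and the line marks a ratio of 1. Afp lay at 2.03 in cluster 13 and below 1 in the other groupings (0.757 and 0.735), whereas Apob, Apom and Cubn lay above 1 in each.

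Other endoderm had the members at lower levels. Rbp4 was at 175 and 233 CPM, Afp at 105 and 122 CPM and Ttr at 95.3 and 139 CPM, and the intervals of these ratios contained 1. Apob had 5 and 52 UMIs (15.9 and 72.2 CPM, a ratio of 4.54, 1.83 to 14.6) and Apom 1 and 18 UMIs (a ratio of 7.86, 1.24 to 328), and both intervals lay above 1. Cubn had 6 and 30 UMIs (19.1 and 41.7 CPM, 2.18, 0.895 to 6.42). Alb had 0 and 10 UMIs, Apoa1 5 and 12, Amn 0 and 4 and Apoa4 none.

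Related genes in the secretory endoderm-like cells were counted from lists, among genes with at least 20 UMIs there. Over all 2865 such genes the median log2 ratio was 0.01, and the interval of the ratio lay above 1 in 5.79% and below 1 in 5.79%. Of 8 other plasma proteins, 6 had an interval below 1 and none above, 4 were at least 2-fold lower, and the median log2 ratio was -1.06. Itih2, a hyaluronan-binding plasma protein, was at 555 and 177 CPM (a ratio of 0.320, 0.185 to 0.544) and vitronectin (Vtn) at 248 and 85.2 CPM (0.343, 0.149 to 0.762). Fibronectin (Fn1) was at 409 and 390 CPM and transferrin (Trf) at 336 and 227 CPM, with intervals that contained 1. Among 6 uptake partners and lipoprotein receptors, 2 had an interval above 1 and none below, and 4 were at least 2-fold higher, with a median log2 ratio of 1.10. Dab2, the adaptor that links megalin and cubilin to endocytosis, was at 219 and 830 CPM (3.79, 2.21 to 6.99), and megalin (Lrp2) had 3 and 19 UMIs (3.08, 0.906 to 16.2). Lrpap1, the chaperone of megalin, had 4 and 16 UMIs.

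Of 6 other apolipoproteins and assembly factors, 1 had an interval above 1 and 2 below, with a median log2 ratio of -0.35. Apoe was at 2059 and 1313 CPM (0.638, 0.509 to 0.800) and Apoa2 at 380 and 192 CPM (0.505, 0.283 to 0.900). Apoc2 had 1 and 20 UMIs (9.72, 1.55 to 403), and Mttp, which loads lipid onto apolipoprotein B, was at 102 and 177 CPM (1.74, 0.730 to 4.75). Of 8 endoderm transcription factors, 1 had an interval above 1 and 1 below, with a median of -0.057. Gata4 had 4 and 26 UMIs (3.16, 1.10 to 12.5) and Hhex 6 and 21 (1.70, 0.664 to 5.15), while Onecut2 was at 409 and 206 CPM (0.503, 0.289 to 0.878) and Prox1 at 774 and 568 CPM (0.734, 0.512 to 1.06). Of 15 yolk sac endoderm genes, 4 had an interval above 1 and 2 below, with a median of 0.72. Of 16 liver bud genes, none had an interval above 1 and 6 had one below, with a median of -0.39 and with Lin28b at 394 and 114 CPM (0.288, 0.145 to 0.554) and Krt18 at 58.4 and 142 CPM (2.43, 0.814 to 9.78). These lists overlap with each other, and Itih2, Vtn, Trf, Dab2, Apoa2, Apoc2, Apoe, Mttp and Hhex were also among the markers that named the clusters. The thyroid hormone transporter Slc16a10 was the only counted gene of the retinol, heme and thyroid hormone list (5 and 17 UMIs), and no mature liver gene was counted.

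Cluster 13 lacks the 33 wild-type secretory cells of cluster 18, and there the same lists had other counts. Over all 9016 genes with at least 20 UMIs in it, 5.3% had an interval above 1 and 6.84% below, and the median log2 ratio was -0.022. Of 9 other plasma proteins, 2 had an interval above 1 and 1 below, with a median of 0.12. In the merged endoderm, which holds those 33 cells, none of 10 had an interval above 1 and 4 had one below, with a median of -0.66, where 5.73% of 9190 genes lay above and 7.36% below. In cluster 13, fibrinogen beta (Fgb) was at 17.9 and 68.8 CPM (3.85, 1.67 to 10.9) and Trf at 14.9 and 45.5 CPM (3.06, 1.20 to 9.93), while Ambp was at 65.5 and 39.7 CPM and Vtn at 68.5 and 32.7 CPM (0.477, 0.265 to 0.867). In the merged endoderm the direction of Fgb (36 and 57 UMIs, a CPM ratio of 0.704, 0.456 to 1.10) and of Trf (24 and 39 UMIs, 0.723, 0.424 to 1.26) was the opposite, with intervals that contained 1. Of 11 uptake partners in cluster 13, 4 had an interval above 1 and 1 below, with Dab2 at 110 and 243 CPM (2.20, 1.55 to 3.21) and the HDL receptor Scarb1 at 29.8 and 61.8 CPM. The transcobalamin Tcn2 was at 26.8 and 16.3 CPM, and its receptor Cd320 at 110 and 50.2 CPM (0.455, 0.286 to 0.727). Of 7 other apolipoproteins, 3 had an interval above 1 and 1 below, and of 20 yolk sac endoderm genes 10 and 1. Of 13 transcription factors, 1 had an interval above 1 and 3 below, of 21 liver bud genes 3 and 6, and of 6 retinol, heme and thyroid hormone genes none in either direction. Apoa2 had 1 and 31 UMIs, Apoc2 1 and 20, and the COPII factor Sar1b was at 95.3 and 56.0 CPM. In the merged endoderm, of these 7 apolipoproteins and assembly factors 1 had an interval above 1 and 3 below, with Apoa2 at 26 and 31 UMIs (a CPM ratio of 0.530, 0.305 to 0.930) and Apoe at 163 and 281 (0.767, 0.630 to 0.936). Of the transcription factors in cluster 13, Onecut1 was at 238 and 162 CPM (0.681, 0.513 to 0.908) and Onecut2 at 158 and 82.8 CPM. Dab2 was thus higher in Usb1-null under both groupings, as Cubn was.

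Outside both clusters the members were sparse in single cells, and their sums differed between the libraries. There, 14893 wild-type and 12640 Usb1-null cells held 268 and 1162 member UMIs (12.6 and 35.8 CPM, a ratio of 2.85, 2.50 to 3.27). Ratios are given without an added value. With 1 CPM added, which weighs on levels this low, Alb and Ttr were the members at least 2-fold higher in Usb1-null, 2 of the 9 with at least 20 UMIs, and none was 2-fold lower, where 1.16% of 18760 genes were 2-fold higher and 0.496% 2-fold lower. Alb had 16 UMIs (0.749 CPM, 0.428 to 1.22) and 429 UMIs (13.2 CPM, 12 to 14.5), a ratio of 17.6 (10.7 to 31.2). It was seen in 0.0940% and 2.40% of cells, or 0.0269% and 0.562% after thinning. Afp, in contrast, was at 2.20 and 2.53 CPM (1.15, 0.793 to 1.68), and its log2 ratio of 0.14 was between -0.43 and -0.23 under 4 other choices of cells or clustering. Ttr was at 1.36 and 3.98 CPM (2.93, 1.94 to 4.54), Cubn at 1.17 and 3.30 CPM (2.82, 1.81 to 4.55) and Apob at 0.890 and 2.19 CPM (2.46, 1.47 to 4.32). Apoa1 was at 1.26 and 2.99 CPM (2.36, 1.53 to 3.77) and Rbp4 at 2.76 and 5.18 CPM (1.87, 1.39 to 2.57). Apom was at 1.17 and 1.60 CPM and Amn at 0.984 and 0.678 CPM (0.689, 0.362 to 1.32), both with intervals that contained 1, and Apoa4 had 0 and 5 UMIs.

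Alb was widely spread over these cells. In Usb1-null, 253 cells with 1 Alb UMI held 59.0% of the Alb UMIs outside the endoderm, and 26 cells with at least 3 held 29.8%. Of the 17 clusters with at least 100 cells, each had Alb in Usb1-null, from 3.0 to 37.5 CPM, against 0 to 4.80 CPM in wild-type. The 30 mature liver genes together had 554 and 1093 UMIs in the wild-type and Usb1-null cells outside both clusters (25.9 and 33.7 CPM). Of the 12 with at least 20 UMIs there, 3 were at least 2-fold higher in Usb1-null with 1 CPM added and none 2-fold lower. Among all 18760 genes, 1.16% were 2-fold higher and 0.496% 2-fold lower. The only one of the 12 with a lower level was Arg1, an enzyme of the urea cycle, with 441 and 560 UMIs (0.836, 0.736 to 0.949). Without Arg1 the list had 113 and 533 UMIs (5.29 and 16.4 CPM). Per 100 Alb UMIs the mature liver-like droplets and the other Usb1-null cells held 14.5 and 12.6 UMIs of Mup3, 8.84 and 8.62 of Serpina3k and 14.5 and 7.93 of Cps1. Apoa2, which is on the apolipoprotein and not the mature liver list and also had 26 UMIs in the wild-type secretory cells, was at 25.3 and 26.8 per 100. The 2 intervals overlapped for Mup3, Serpina3k and Apoa2 and did not for Cps1. They also overlapped for Cyp3a11 (7.05 and 8.86), Cyp2e1 (5.70 and 4.66), Ahsg (8.61 and 12.1) and Apoc1 (10.5 and 14.2). Cps1 was thus the exception among the genes compared that are not members. Every other member had more UMIs per 100 Alb UMIs in the other cells than in the droplets, from 15.2 and 30.1 for Ttr, 8.72 and 22.6 for Apoa1 and 5.70 and 39.2 for Rbp4 to 0.336 and 19.1 for Afp and 0.224 and 24.9 for Cubn. RNA that is free in the suspension also gives UMIs in droplets of cells that do not make it, and its part in these levels was not tested. The shares above are thus not read as cells that express Alb.

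**Figure D5:**
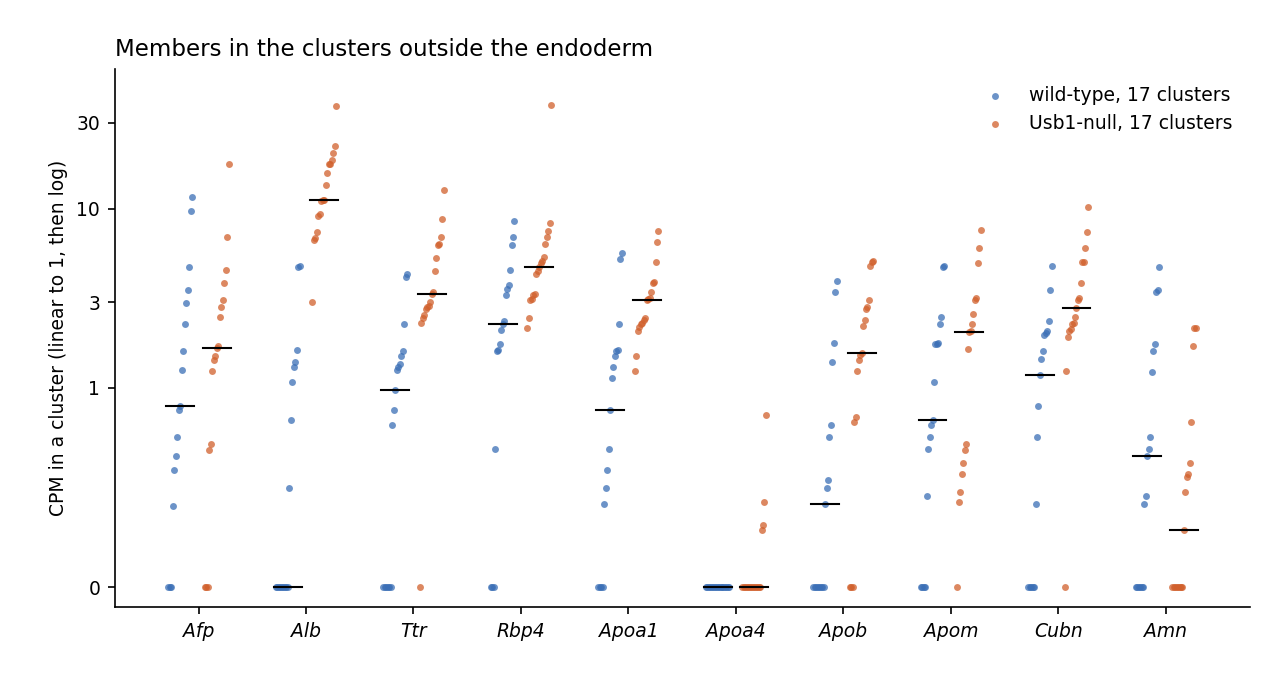
CPM of each member (linear to 1, then logarithmic) in the 17 clusters outside the endoderm with at least 100 cells, wild-type in blue and Usb1-null in orange; each point is 1 cluster and the bar is the median of these clusters. Alb lay at 3.0 to 37.5 CPM in each Usb1-null cluster and at 0 to 4.80 CPM in wild-type, and the highest Rbp4 value, 37.9 CPM, was in primitive erythroid-like cells.

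Some members stood out in single clusters, mostly through few cells. Afp in wild-type endothelial-like cells (14 UMIs, 9.75 CPM) came from 1 cell, and Afp in primitive erythroid-like cells came from 2 wild-type cells (8 UMIs, 11.6 CPM), both called doublets, and from 1 Usb1-null cell (7 UMIs, 17.7 CPM). Rbp4 in Usb1-null erythroid-like cells had 15 UMIs (37.9 CPM) in 4 cells, 12 of them in 1. Apob in wild-type splanchnic and lateral mesoderm-like cells had 6 UMIs (3.95 CPM), each in another cell. Amn had 5 UMIs each in Usb1-null surface ectoderm-like (1.72 CPM, 5 cells) and endothelial-like cells (2.17 CPM, 4 cells).

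Across 19 clusters in both libraries (38 points that share libraries and depth), the log2 levels of the members ran together to different degrees, as a description. Pearson's r was 0.907 for Ttr and Apob and 0.860 for Afp and Cubn, but 0.409 for the neighbours Afp and Alb and 0.219 for Alb and Apoa4. The genes most like the summed members were Apoa2 (r = 0.864), Il1r1 (0.863), Hnf1aos1 (0.854), Trf (0.821), Sgms2 (0.815), Nr5a2 (0.808), Dpp4 (0.804), Ctsh (0.777), Cept1 (0.750) and Gabarapl1 (0.747). The closest gene was Nr5a2 for Afp (0.827), Fabp1 for Alb (0.832), Hnf1aos1 for Ttr (0.872) and Rbp4 (0.847), Apoa2 for Apoa1 (0.859) and Apom (0.730), Il1r1 for Apob (0.858), Dpp4 for Cubn (0.810), Sgms2 for Amn (0.782) and Fam114a2 for Apoa4 (0.637).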

How the data were processed

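UMI counts per gene and droplet, as 1 matrix per library, were deposited by the authors; they are raw and not normalized. Libraries were made with the 10x 3′ kit (v3.1). The file headers and the study's methods name Cell Ranger 6.1.2, the labels Cell Ranger 2.1.1, with mm10 as the build; no source used here gives the annotation or says whether introns were counted. Nuclear RNA is the labelled molecule, although whole cells were suspended per the protocol. The number of wild-type cells the study states differs from the number of barcodes in the files.

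Wild-type had 15162 and Usb1-null 13034 barcodes; cells with 200 to 6000 genes and under 30% mitochondrial UMIs were kept. After 2000 variable genes per library (without members, mitochondrial, ribosomal, Xist and Y-linked genes), 30 principal components and a Harmony correction rewritten in NumPy (50 soft clusters, sigma 0.1, theta 2, lambda 1, 10 iterations), 20 neighbours gave Leiden clusters, for which 19 were aimed at. A cluster took the name of the marker list with most raised markers (at least 10 UMIs and 2-fold, at least 3 markers). Scrublet called 1025 wild-type and 560 Usb1-null doublets, which were kept and removed in an alternative. Endoderm was sub-clustered at a resolution of 0.5. UMIs were summed per library and group; CPM have exact Poisson intervals, shares Clopper-Pearson intervals and ratios exact conditional intervals. PCR and capture are not covered. Scripts were tested on simulated data.

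The members and lists were chosen with earlier results of these data known. Named were all members, and in each list, of the genes that reached 20 UMIs in those cells, the 2 highest and 2 lowest ratios, some of which are not reported here; a cluster was named for a member when it had at least 5 UMIs and a lower bound over 3 times the median cluster. The genes most like the members needed 200 UMIs. The secretory, merged and mature liver-like groups, and the use of the naming rule in secretory cells, were chosen after seeing the data. Alternatives changed resolution, seed, variable genes, correction, filters, doublets, pseudocount and thinning. Gene positions are from GENCODE (GRCm38) and promoters from RefSeq. Python 3.11.15, numpy 2.4.6, scipy 1.17.1, pandas 2.3.3, scanpy 1.11.5, leidenalg 0.10.2, scikit-learn 1.9.0 and matplotlib 3.10.9 were used.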

Additional observations from a re-analysis of the deposited data

How the results depend on the processing

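No paired analysis was possible because each group was 1 library. Values are log2 ratios of Usb1-null over wild-type unless stated, and the causes of changes were not tested. Of 604 values under an alternative, 502 lay within the 95% counting interval of the reported one, which is wide for few UMIs, 88 lay outside it, and 14 turned the sign of a value whose interval did not contain 0. The 56 values of Apoa4, which had 0 wild-type UMIs and so no finite interval, are not counted in these. The summed level in whole libraries (1.65) was 1.47 with a mitochondrial limit of 10%, 1.31 with at least 1000 genes per cell, 2.24 as a mean per cell, 2.28 after thinning, 1.36 with the wild-type class shares and 1.44 with 10 CPM added. In the endoderm cluster (1.24) it was 1.69 after thinning, 2.15 with members among the variable genes, 0.50 without the pathway lists, 0.32 without library correction, 0.40 with another seed, 0.37 with more variable genes, 0.32 without doublets, 1.77 at 10% mitochondrial and 0.74 at 1000 genes. Outside the endoderm (1.44) it was 1.02 with 10 CPM added, 1.18 without the pathway lists, 1.21 without correction and 1.20 at 1000 genes.

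The mature liver cluster held 0.407% of Usb1-null cells and 0.292% without the pathway lists. In wild-type it held 0.218%, but 0.356% with members in, 0.310% at 10% mitochondrial and 0 without the lists, without correction, with another seed, with more variable genes and without doublets. No such cluster was found at 0.5 times the resolution or at 1000 genes, where endoderm droplets with at least 3 mature liver UMIs were counted in its place (0 in wild-type in both, and 0.392% and 0.154% in Usb1-null). In the reported clustering, at 2 times the resolution, with members in and at 10% mitochondrial, the cluster held 33, 33, 54 and 47 wild-type cells, none with 3 mature liver UMIs.

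Signs turned in the endoderm cluster for Afp (-0.52 at 0.5 times the resolution, -0.15 without the lists, -0.33 without correction, -0.25 with another seed, -0.36 with more variable genes, -0.32 without doublets, -0.47 at 1000 genes), Ttr (-0.13 without correction, -0.090 with another seed, -0.010 with more variable genes, -0.11 without doublets), Rbp4 (-0.027 without doublets) and Apoa1 (-0.14 after thinning). Values whose interval contained 0 also turned sign, namely Afp (-0.31) and Amn (-0.056) in whole libraries with the wild-type class shares, Amn (-0.39) there after thinning, Afp outside the endoderm (-0.43 without the lists, -0.29 without correction, -0.23 with another seed, -0.31 at 1000 genes), Ttr (0.0097 without the lists, 0.097 at 1000 genes) and Rbp4 (-0.038 without doublets) in the merged endoderm, and Alb in the secretory cells (-1.11 without droplets with a mature liver UMI, -2.20 with cluster 13 alone). Alternatives added after seeing the data gave 0.50 for the merged endoderm without the lists (0.33), and for the secretory cells (0.32) 0.14 without doublets and 0.52 with cluster 13 alone, where the share ratio was 3.65 in place of 1.29 and Afp 0.30; without droplets holding a mature liver UMI the share ratio was 0.979. With 1 library per group, no alternative gives a replicate error, and members with under 20 UMIs in a group are limited by depth.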
